A study of Mus musculus with 6 samples.

Results

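The glutathione transferases and the genes of the Nrf2 antioxidant response were followed in skin from the back of e18.5 mouse embryos, in 3 Get1 -/- and 3 Get1 +/+ animals with 1 oligonucleotide array per mouse. Get1 is an older name of grainyhead-like 3 (Grhl3), an epithelial transcription factor, and Get1 -/- animals are homozygous for the mutant allele. The tissue was whole skin, so the labels define no sorted cell type, and they state neither the strain nor which part of the gene was targeted. The members were 39 named genes, each read through its brightest probe set by mean log2 signal over the 6 arrays. Probe sets carrying the symbol of 37 of the 39 were present, among 19324 gene symbols on the array. A mean signal at or above the median probe set (137 arbitrary units) was required for testing, and 30 members passed among 11387 genes. Of the other 9, Gsta3, Gstt2, Gpx2, Slc7a11 and Aldh3a1 lay below that level, Gsta1 and Prdx1 had only probe sets shared with other genes, and Prdx6 and G6pdx were not analysed here. The question was whether Gsta2 is lower alone or together with other Nrf2-linked genes. The list was drawn up knowing that Gsta2 differs in these arrays, so its presence among the called genes is a description and not a new finding.

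Nrf2 (encoded by Nfe2l2) is a transcription factor that Keap1 holds in the cytoplasm and marks for degradation. Oxidants and electrophiles modify Keap1, Nrf2 then accumulates in the nucleus and binds antioxidant response elements, and genes for glutathione synthesis, thioredoxin recycling and conjugating enzymes are induced. Glutathione transferases join glutathione to reactive lipids and foreign compounds. In skin this system is known to protect keratinocytes from ultraviolet light and oxidants, and its forced activation alters the cornified envelope.

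The probe sets of the alpha-class transferases cover genes that resemble each other closely, so their start regions are shown first. Gsta4, Gsta1, Gm3776 and Gsta2 lie in this order on chromosome 9 in RefSeq. The 3 windows below run from 250 bases before to 50 bases after each annotated start (RefSeq, build GRCm38.p6), written 5′ to 3′ in the direction of the gene. Capitals mark the longest run of bases identical in all 3 windows, 29 bases.
Gsta2, chr9:78347096-78347395 (- strand): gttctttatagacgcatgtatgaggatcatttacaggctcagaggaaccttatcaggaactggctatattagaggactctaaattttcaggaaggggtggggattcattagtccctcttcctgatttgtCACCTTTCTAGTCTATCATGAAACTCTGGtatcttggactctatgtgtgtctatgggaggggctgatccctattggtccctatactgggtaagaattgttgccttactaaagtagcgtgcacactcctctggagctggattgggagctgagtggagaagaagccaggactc
Gsta1, chr9:78230419-78230718 (+ strand): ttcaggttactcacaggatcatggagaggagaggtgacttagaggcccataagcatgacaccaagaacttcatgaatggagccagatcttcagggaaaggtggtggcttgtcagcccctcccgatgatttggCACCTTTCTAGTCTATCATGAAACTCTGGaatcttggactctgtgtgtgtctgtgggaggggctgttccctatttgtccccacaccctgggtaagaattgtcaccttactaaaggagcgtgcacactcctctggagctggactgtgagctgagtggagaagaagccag
Gm3776, chr9:78256879-78257178 (+ strand): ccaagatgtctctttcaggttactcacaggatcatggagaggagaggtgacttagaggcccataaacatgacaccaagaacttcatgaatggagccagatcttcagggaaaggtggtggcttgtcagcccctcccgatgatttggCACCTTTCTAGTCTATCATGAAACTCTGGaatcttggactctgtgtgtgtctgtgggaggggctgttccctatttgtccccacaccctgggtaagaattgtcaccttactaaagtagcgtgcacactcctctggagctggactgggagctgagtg
The Gsta1 and Gm3776 windows were 99% identical over 287 aligned bases. The Gsta2 window was 80.3% identical to that of Gsta1 over 289 aligned bases, and 81.4% identical to that of Gm3776 over 274. Cross-hybridisation among transcripts of this family was not tested, and the signal of a probe set named for 1 of them may include the others.

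Gsta2, a transferase of lipid peroxidation products, fell in Get1 -/- skin to 27.7% of its level in Get1 +/+ skin. Its signal was 379, 576 and 439 in Get1 -/- mice 1, 2 and 3, against 1723, 1705 and 1536 in Get1 +/+ mice 1, 2 and 3. All Get1 -/- arrays lay below all Get1 +/+ arrays, and the Get1 +/+ values differed little among themselves. The means were 465 ± 101 in Get1 -/- and 1655 ± 103 in Get1 +/+ skin (SD, n = 3 each). The log2 change was -1.85 ± 0.18 (SE), with a 95% interval from -2.27 to -1.44. Its adjusted p was 0.00756 (limma, Benjamini-Hochberg over 11387 genes), where 0.0439% of all genes passed the threshold of 0.05. The change stayed between -2.02 and -1.72 with each array left out in turn, but the adjusted p was 0.0509 without Get1 +/+ replicate 2 and 0.0683 without Get1 +/+ replicate 3. In whole skin, fewer cells that express a gene and less RNA per cell cannot be told apart.

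A probe set annotated to Gsta1, Gsta2 and Gm3776 together was also lower, with values further apart. It read 476, 1227 and 824 in Get1 -/- mice, against 1731, 3097 and 2497 in Get1 +/+ mice. The genotypes did not overlap, and mouse 2 was the highest in each genotype. The log2 change was -1.60 ± 0.34 (SE), or 33% of the Get1 +/+ level, and it missed the threshold in a fit of each kept probe set on its own (adjusted p = 0.505 over 22519 probe sets, limma). In that fit 0.0266% of all probe sets passed, and the probe set of Gsta2 alone was among them (adjusted p = 0.0207). The shared probe set cannot say which of the 3 genes gave its signal.

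The other alpha-class members gave no second call. Gsta4, which acts on 4-hydroxynonenal, a product of lipid peroxidation, read 177, 122 and 174 in Get1 -/- mice, against 136, 121 and 137 in Get1 +/+ mice. These values overlap, and 4 of the 6 lie below 137, the level that the mean over arrays had to reach. The log2 change was 0.25 ± 0.26 (SE). Gsta3 lay far below that level on all arrays. Its brightest probe set read 13.1, 7.54 and 24.7 in Get1 -/- mice, against 70.1, 29.6 and 70.1 in Get1 +/+ mice. A second Gsta3 probe set differed in the opposite direction (log2 difference 1.30, against -1.97 for the brightest), so no direction is given for this gene.

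**Figure D1:**
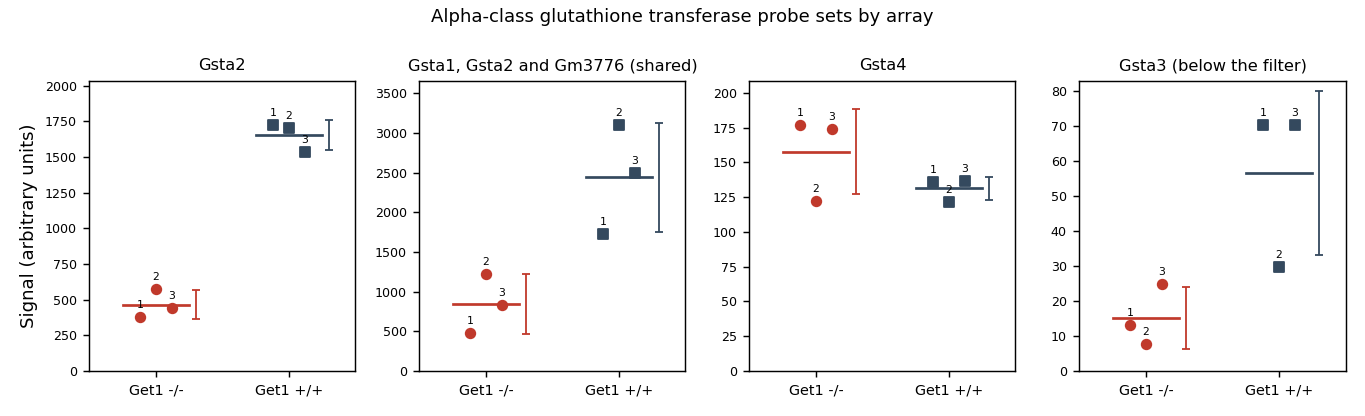
Signal in arbitrary units (vertical axis, from 0) of 4 alpha-class probe sets in Get1 -/- (red circles) and Get1 +/+ (dark squares) skin. Each point is 1 mouse with its number, the horizontal line is the mean and the bar beside it the SD. Gsta2 and the probe set shared by Gsta1, Gsta2 and Gm3776 were lower in all 3 Get1 -/- mice, while Gsta4 overlapped and Gsta3 lay below the level required for testing.

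To see whether the fall in Gsta2 belonged to a change of its chromosomal neighbourhood, the nearest 5 tested genes on each side were read, a rule chosen after the members' values had been seen. Their log2 changes ran from -0.46 for C920006O11Rik to 0.35 for Cgas. In limma 0 of 10 passed the threshold over all genes, where 0.0439% of all genes passed, so a call among 10 genes was hardly possible. A change of the neighbourhood as a whole was not tested. The smallest unadjusted p among them was 0.0574, for C920006O11Rik, and the genotypes did not overlap for 3 of the 10, where 12% of all genes did not. Of these 3, Cilk1 and C920006O11Rik were lower and Cgas was higher in Get1 -/- skin. Gsta1 and Gm3776, which lie between Gsta4 and Gsta2, were not tested and are not among the 10. The probe set that they share with Gsta2 was lower (log2 change -1.60).

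The regulators themselves were not called. Nfe2l2 read 1422, 1713 and 1574 in Get1 -/- mice, against 1573, 1050 and 1423 in Get1 +/+ mice. These ranges overlap, with Get1 +/+ mouse 2 alone below the rest, and the log2 change was 0.24 ± 0.18 (SE, adjusted p = 0.776 in limma). Keap1 read 1397, 937 and 1210 in Get1 -/- mice, against 1033, 748 and 1271 in Get1 +/+ mice, again with overlap. Its log2 change was 0.23 ± 0.23 (SE), and its other kept probe set differed the other way, by -0.24. Transcript levels do not report Nrf2 protein or its place in the cell.

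Among the other members Txnrd1 had the smallest p, without passing. Txnrd1, the cytosolic thioredoxin reductase that returns thioredoxin to its reduced form, read 2094, 2897 and 2741 in Get1 -/- mice, against 3139, 4180 and 3433 in Get1 +/+ mice. All Get1 -/- values lay below all Get1 +/+ values. The log2 change was -0.48 ± 0.17 (SE), or 71.7% of the Get1 +/+ level, with an unadjusted p of 0.0214 and an adjusted p of 0.574 in limma, so Txnrd1 did not pass. Its other kept probe set read 292, 379 and 343 in Get1 -/- mice, against 416, 700 and 527 in Get1 +/+ mice, without overlap and with a log2 change of -0.67 ± 0.23 (SE). Another Txnrd1 probe set, below the filter, differed by -0.44 with overlap.

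The catalytic subunit of glutamate-cysteine ligase, Gclc, which carries out the rate-limiting step of glutathione synthesis, read 585, 692 and 792 in Get1 -/- mice, against 823, 972 and 836 in Get1 +/+ mice. The genotypes were apart by a small gap, between Get1 -/- mouse 3 and Get1 +/+ mouse 1. The log2 change was -0.35 ± 0.17 (SE, unadjusted p = 0.0661 and adjusted p = 0.622 in limma). The other kept Gclc probe set gave -0.27 ± 0.24 (SE) and its genotypes overlapped. Its modifier subunit, Gclm, did not share this pattern. Gclm read 984, 575 and 502 in Get1 -/- mice, against 652, 614 and 597 in Get1 +/+ mice, so that Get1 -/- mouse 1 was the highest of all and mouse 3 the lowest. Glutathione synthetase (Gss, log2 change 0.07 ± 0.23, SE) and glutathione reductase (Gsr, 0.14 ± 0.18, SE) overlapped between genotypes, and the other kept Gsr probe set differed by -0.33. Slc7a11, the cystine importer that feeds glutathione synthesis, stayed between 40.4 and 69.5 on all 6 arrays, below the level required for testing.

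Genes often used as reporters of Nrf2 activity were not called. The quinone reductase Nqo1 read 163, 158 and 156 in Get1 -/- mice, against 121, 175 and 185 in Get1 +/+ mice. The Get1 -/- values fell inside the Get1 +/+ range, and the log2 change was 0.01 ± 0.25 (SE). Sulfiredoxin (Srxn1), which repairs overoxidised peroxiredoxins, had a log2 change of 0.22 ± 0.21 (SE). The probe set used for it averaged 337 ± 33.6 in Get1 -/- and 293 ± 64.1 in Get1 +/+ skin (SD, n = 3 each), and its other kept probe set differed by -0.14. Carbonyl reductase Cbr3 had a log2 change of -0.19 ± 0.20 (SE). Aldh3a1, an aldehyde dehydrogenase abundant in cornea, read between 20.1 and 69.7 on all arrays, below the level required for testing.

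Haem oxygenase Hmox1 was the most variable of the 30 tested members. It read 299, 642 and 1210 in Get1 -/- mice, against 898, 1220 and 659 in Get1 +/+ mice. The range in Get1 -/- skin alone spanned 4.04-fold and covered most of the Get1 +/+ range. Its log2 change of -0.55 ± 0.44 (SE) had a 95% interval from -1.54 to 0.45, so its size could not be settled with 3 mice per genotype. The SD of log2 signal within a genotype was 0.78 for Hmox1, against a median of 0.235 over the tested members.

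**Figure D2:**
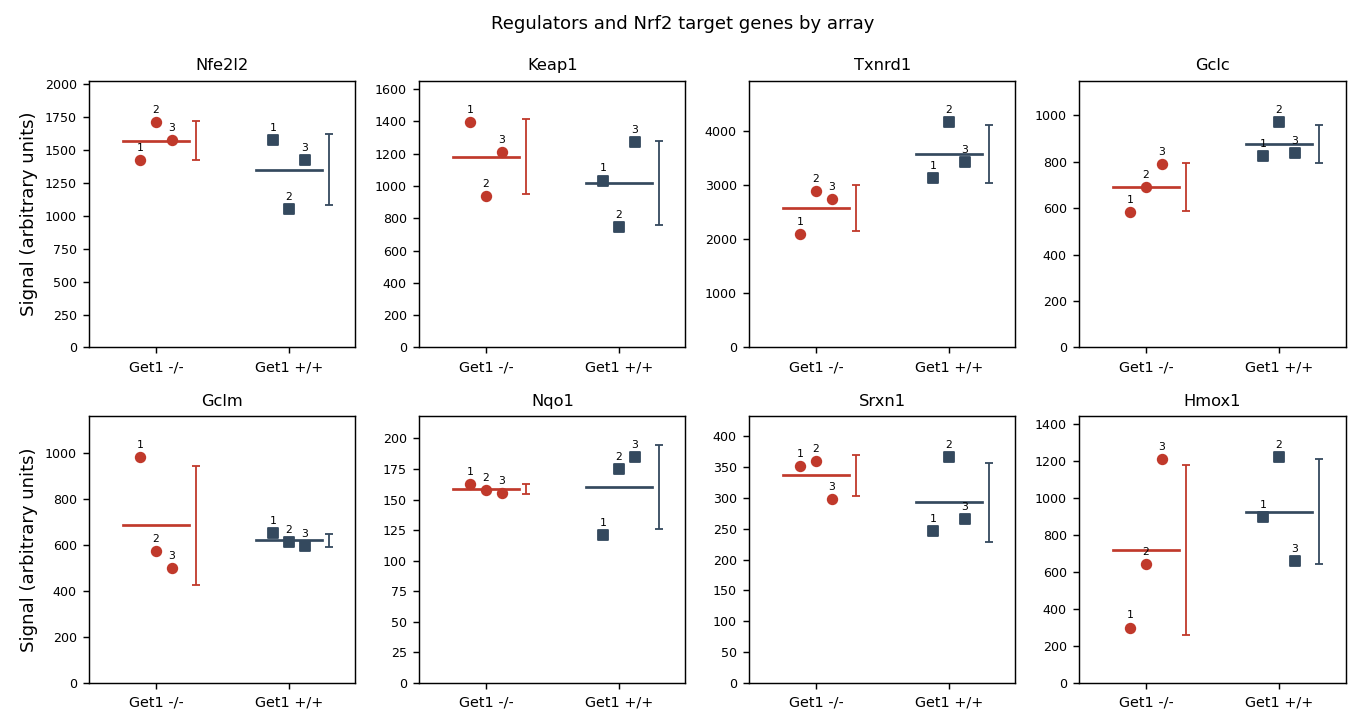
Signal in arbitrary units (vertical axes, from 0) of the regulators Nfe2l2 and Keap1 and of 6 Nrf2 target genes in Get1 -/- (red circles) and Get1 +/+ (dark squares) skin, with mouse numbers, means (lines) and SD (bars). Txnrd1 and Gclc were lower in all 3 Get1 -/- mice without passing the test, and the other 6 genes overlapped between genotypes.

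The tested transferases of other classes were closely spaced between genotypes. The mu-class genes Gstm1, Gstm2 and Gstm5 had log2 changes of -0.22 ± 0.16, -0.17 ± 0.15 and -0.29 ± 0.19 (SE), with adjusted p from 0.732 to 0.809 in limma. Gstm1 read 1024, 964 and 1192 in Get1 -/- mice, against 1147, 1179 and 1375 in Get1 +/+ mice, a small overlap. A second Gstm1 probe set read 892, 831 and 1028 in Get1 -/- mice, against 1075, 1035 and 1109 in Get1 +/+ mice, without overlap. Among the brightest members were the pi-class Gstp1 (log2 change 0.03 ± 0.15, SE), the omega-class Gsto1, which reduces dehydroascorbate and other substrates (0.10 ± 0.14), and the microsomal Mgst1 (0.05 ± 0.19). Mgst1 averaged 7834 ± 1386 in Get1 -/- and 7592 ± 1660 in Get1 +/+ skin (SD, n = 3 each). Mgst2, Mgst3, the theta-class Gstt1 and the mitochondrial Gstk1 differed by between -0.18 and 0.03. Gstt2 had a mean below the level required for testing in this tissue. It read 133, 110 and 151 in Get1 -/- mice, against 30.6, 96.5 and 129 in Get1 +/+ mice, with overlap (log2 difference 0.85). Of 12 tested transferases 1 fell, 0 rose and 11 did not pass. The 1 call, Gsta2, is 8.33% of them, beside 0.0439% of all genes. A transferase that did not pass is not shown to be unchanged.

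Enzymes that remove hydrogen peroxide and superoxide were not called in either direction. Glutathione peroxidase 4 (Gpx4), which reduces lipid hydroperoxides, had a log2 change of 0.08 ± 0.17 (SE), and Gpx1 one of -0.08 ± 0.14. The secreted Gpx3 differed by -0.23 ± 0.23, and Gpx2, best known from the gut, lay below the level required for testing. Catalase (Cat) read 2677, 5338 and 3682 in Get1 -/- mice, against 2852, 3368 and 3395 in Get1 +/+ mice, with Get1 -/- mice 2 and 3 above and mouse 1 below all Get1 +/+ values. Cytosolic Sod1 read 5601, 5770 and 6998 in Get1 -/- mice, against 4770, 4764 and 6166 in Get1 +/+ mice, where only Get1 +/+ mouse 3 reached into the Get1 -/- range. Its log2 change was 0.23 ± 0.15 (SE, adjusted p = 0.732 in limma), and that of mitochondrial Sod2 was 0.14 ± 0.14. Thioredoxin (Txn1) was among the steadiest members, between 10518 and 11994 on all 6 arrays. Peroxiredoxin 1 (Prdx1) was read only by 5 probe sets shared with Gm21399, and their log2 differences ran from -0.08 to 0.02.

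Over the 30 tested members, Gsta2 fell and 0 rose past the threshold, and 29 did not pass. The median log2 change was 0.02, beside 0.01 over all 11387 genes, with 16 members higher and 14 lower in Get1 -/- skin. At an unadjusted p under 0.05 there were 2 members, Gsta2 and Txnrd1, which is 6.67% of them, where 8.18% of all genes reached it. The genotypes did not overlap for 3 members, or 10%, beside 12% of all genes. All 3 (Gsta2, Txnrd1 and Gclc) were lower in Get1 -/- skin, a direction in which 6.78% of all genes did not overlap. Leaving out Gsta2, 3.45% of the 29 other members had an unadjusted p under 0.05, below the share of all genes. The 2 that did not overlap made up 6.9% of the 29, below the share of all genes in either direction and near that of the lower ones.

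The changes of Gsta2 and of the other members were set side by side through the log2 difference within each array. Because Gsta2 was known to differ when the list was made, these differences are a description. The change of Gsta2 was lower than that of each of the 29 other tested members, with log2 differences between -1.31 (Hmox1) and -2.10 (Gsta4). For all 29 the difference was lower on all Get1 -/- arrays than on all Get1 +/+ arrays. Each exact two-sided permutation test gave p = 0.1, also after adjustment over the 29 comparisons. That is the smallest p that 3 against 3 arrays allow, so this test could not reach the threshold of 0.05 and supports nothing here. In the limma fit the 95% interval of 28 other members lay wholly above a log2 change of -1, that of Txnrd1 reaching down to -0.87. Hmox1 was the exception, and it alone had an interval overlapping that of Gsta2.

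**Figure D3:**
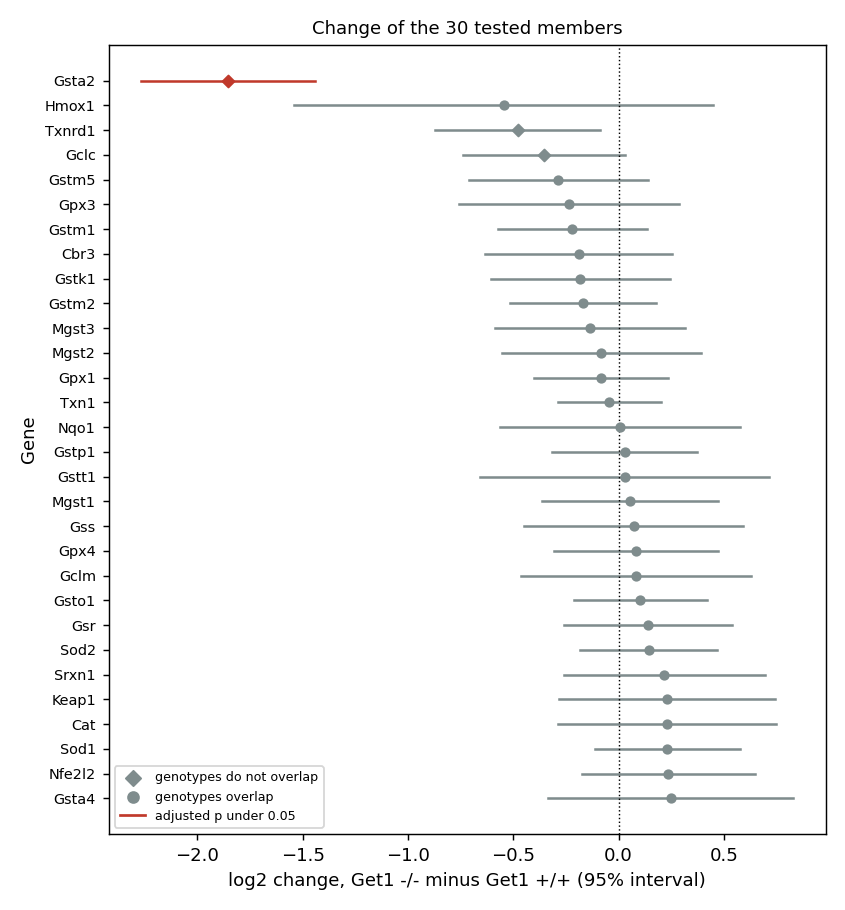
Log2 change (Get1 -/- minus Get1 +/+, horizontal axis) of the 30 tested members, ordered by size, with 95% intervals from limma. Gsta2 (red) alone passed an adjusted p of 0.05, diamonds mark the 3 members whose genotypes did not overlap, and the other intervals include 0 except that of Txnrd1.

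Of 74 further genes of glutathione, thioredoxin and NADPH metabolism and of Nrf2 regulation, 55 were tested. In limma without the replicate block 0 passed over all genes, where 0.0439% of all genes passed. An unadjusted p under 0.05 was reached by 7, of which 6 were lower and 1 (Nqo2) was higher in Get1 -/- skin. These 7 are 12.7% of the list, beside 8.18% of all genes. The genotypes did not overlap for 8, or 14.5%, beside 12% of all genes. Of these 8, 5 were lower, or 9.09% of the list beside 6.78% of all genes, and 3 were higher. The median log2 change of the list was -0.04. The smallest p belonged to Sod3, the extracellular superoxide dismutase. It read 120, 227 and 286 in Get1 -/- mice, against 415, 759 and 413 in Get1 +/+ mice, without overlap (log2 change -1.36 ± 0.35, SE, adjusted p = 0.469 in limma).

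Ggct, gamma-glutamylcyclotransferase, which releases 5-oxoproline during glutathione breakdown, read 1892, 4926 and 3150 in Get1 -/- mice, against 5500, 9373 and 6194 in Get1 +/+ mice. Mouse 2 was the highest in each genotype, and the genotypes did not overlap (log2 change -1.15 ± 0.32, SE, adjusted p = 0.497 in limma). With the replicate number as a block, whose pairing of the mice is uncertain, Ggct passed (log2 change -1.15 ± 0.15, SE, adjusted p = 0.0434 in limma). Abcc1, an exporter of glutathione conjugates, read 1208, 1392 and 1152 in Get1 -/- mice, against 1602, 1881 and 1576 in Get1 +/+ mice (log2 change -0.43 ± 0.15, SE, adjusted p = 0.567 in limma). Its genotypes did not overlap either. Nfe2l3, a relative of Nrf2, read 230, 456 and 254 in Get1 -/- mice, against 505, 714 and 412 in Get1 +/+ mice, where Get1 -/- mouse 2 lay above Get1 +/+ mouse 3. Its log2 change was -0.83 ± 0.30 (SE).

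**Figure D4:**
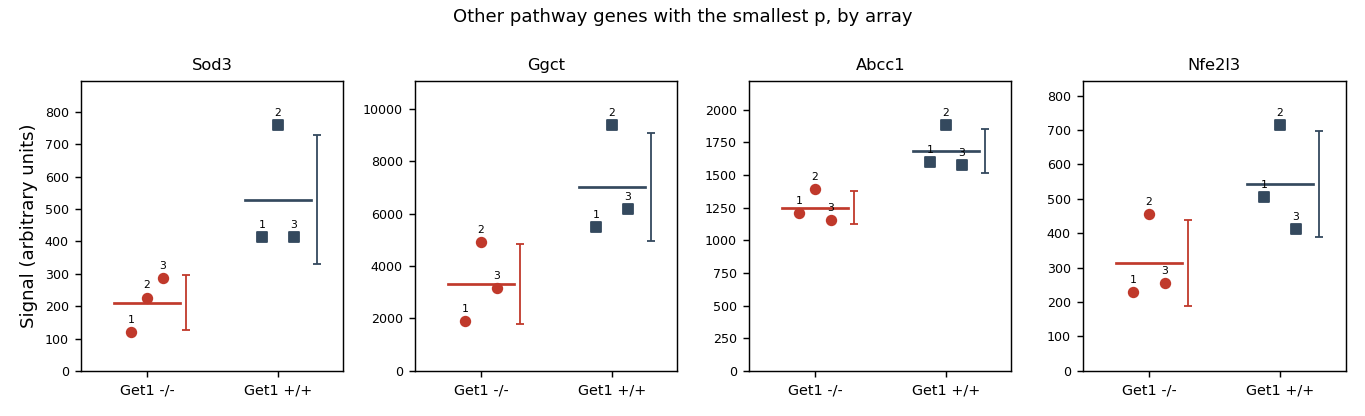
Signal in arbitrary units (vertical axes, from 0) of the 4 further pathway genes with the smallest p, in Get1 -/- (red circles) and Get1 +/+ (dark squares) skin, with mouse numbers, means (lines) and SD (bars). Sod3, Ggct and Abcc1 did not overlap between genotypes, Nfe2l3 did, and 0 of the 4 passed over all genes without the replicate block.

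Gsta2, Nqo1 and Aldh3a1 are also known targets of the aryl hydrocarbon receptor, so a list of 10 genes of that receptor, which holds Nqo1 and Aldh3a1 but not Gsta2, was read as well. Of these 5 were tested (Ahr, Arnt, Ahrr, Tiparp and Nqo1), 3 higher and 2 lower in Get1 -/- skin. Of the genes that the receptor is known to induce, Cyp1a1, Cyp1a2, Cyp1b1, Ugt1a6a and Aldh3a1 were not tested. Tiparp, Ahrr and Nqo1 were tested, and Nqo1 lay near the filter. The list therefore covers only part of the genes that the receptor induces and says little about them as a group. Of the 5 tested, 0 passed in limma, beside 0.0439% of all genes. An unadjusted p under 0.05 was reached by 0, beside 8.18% of all genes, and 0 did not overlap, beside 12%. At these shares, counts of 0 among 5 genes say nothing about the receptor's genes. The receptor's partner Arnt had a log2 change of 0.64 ± 0.42 (SE). The receptor gene Ahr had a log2 change of 0.09 ± 0.20 (SE), its repressor Ahrr one of -0.40 ± 0.25 and its target Tiparp one of -0.07 ± 0.21.

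The start regions of the members were searched for short motifs on both strands, as a description. Windows were available for 32 members, 39 windows in all, since some genes have several starts. The antioxidant response element core TGACNNNGC was present in 10 of the 39 windows (25.6%), in as many genes, and in 12.4% of 32851 windows of all genes. The genes were Nfe2l2, Gsta3, Gstm5, Mgst1, Gclm, Prdx1, Srxn1, Txnrd1, Sod1 and G6pdx. The windows of Gsta2 and Gsta1 printed above hold no match. Bases beyond the 250 before and 50 after each start were not searched, so an element farther away would be missed. The grainyhead palindrome AACCGGTT was in 0 of the members' windows and in 0.146% of all windows. Its looser form AACNNGTT, which includes the palindrome, was in 5 of the 39 windows of members (12.8%), beside 4.2% of all windows. These 5 belonged to Gsta3, Gpx3, Gstp1, Mgst3 and G6pdx. Of the members whose genotypes did not overlap, Gclc had no window and was not searched, Gsta2 had no match, and Txnrd1 had the antioxidant core in 1 of its 3 windows. That window is shown with the core in capitals, which lies on the strand opposite to the gene.
Txnrd1, chr10:82858956-82859255 (+ strand): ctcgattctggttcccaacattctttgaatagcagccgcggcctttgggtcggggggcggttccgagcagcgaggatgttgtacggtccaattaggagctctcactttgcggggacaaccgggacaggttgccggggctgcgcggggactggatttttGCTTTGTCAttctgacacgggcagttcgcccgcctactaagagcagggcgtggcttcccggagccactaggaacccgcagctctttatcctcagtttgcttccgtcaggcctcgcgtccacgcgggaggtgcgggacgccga

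Values of the arrays that bear on these results were as follows. Grhl3 itself read 246, 413 and 380 in Get1 -/- mice, against 478, 934 and 670 in Get1 +/+ mice, without overlap (log2 change -0.98 ± 0.28, SE, adjusted p = 0.497 in limma), and a probe set outside the targeted part checks nothing. Get1 +/+ replicate 3 was the highest array for 12 of the 30 members and the lowest for 0, and Get1 +/+ replicate 1 was the lowest for 9. The arrays were also split into 2 sets at the largest gap in the mean log2 signal of the beta-actin controls, a rule that always gives 2 sets. Get1 -/- mouse 3 (14.22) lay between the other arrays of the lower set (13.88 and 13.99) and those of the higher set (14.51 to 14.55). In the set with the higher signal (Get1 -/- mouse 1, Get1 +/+ mice 1 and 2) Gsta2 differed by -2.18 on the log2 scale and in the other set by -1.61. Txnrd1 differed by -0.79 and -0.29 in these sets, and Hmox1 by -1.81 and 0.42, each resting on 1 array of a genotype. Markers of suprabasal keratinocytes (Krt1, Krt10, Lor, Ivl, Krtdap and Dsc1) were lower in 6 of 6 cases, with a median log2 change of -0.28 and 0 passing in limma. Their summed signal ran from 100779 to 130982 in Get1 -/- and from 128633 to 141926 in Get1 +/+ skin. Macrophage markers were higher in 5 of 6 cases, with summed signals from 12344 to 13451 in Get1 -/- and from 8399 to 11466 in Get1 +/+ skin. Endothelial markers were higher in 6 of 6 cases, with sums from 4969 to 5829 in Get1 -/- and from 4572 to 4799 in Get1 +/+ skin. Skeletal muscle markers were higher in 6 of 6 cases (median log2 change 0.28), with sums from 92232 to 133754 in Get1 -/- and from 78787 to 119003 in Get1 +/+ skin. Basal keratinocyte markers were lower in 5 of 6 cases (median -0.20), with sums from 52568 to 55092 in Get1 -/- and from 53995 to 66271 in Get1 +/+ skin. Of 5 tested adipocyte markers 1 was lower (median 0.13), with sums from 30599 to 41105 in Get1 -/- and from 28580 to 35567 in Get1 +/+ skin. Dermal fibroblast markers were lower in 3 of 6 cases (median -0.006), with sums from 122282 to 142452 in Get1 -/- and from 121103 to 147960 in Get1 +/+ skin. Fewer markers were tested for sebaceous (3), erythroid (2) and hepatocyte (1) cells, and 1 was lower in each. The part of these cell types in the results above was not tested.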

How the data were processed

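Back skin of 6 mouse embryos was profiled on 6 arrays, 1 per mouse, in 2 genotypes. Total RNA, purified with TRIzol and a spin column, was labelled as biotinylated cRNA, per the labels' protocols. The authors deposited intensity values on a linear scale for 45101 probe sets, and MAS5 is named in the submitters' processing notes without a version. Every array had a 2% trimmed mean of 500, and nothing was rescaled here. Precision is limited by having 3 arrays per genotype.

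Control probe sets (64) were left out, values were turned into log2, and probe sets with a mean at or above the median (signal 137) were kept (22519 of 45037). Each gene was represented by its brightest kept probe set naming that gene alone. The platform annotation gave 1 symbol to 34945 of the 45037, several to 932 and none to 9160, which are unnamed here. RefSeq tables of build GRCm38.p6 gave promoter windows and gene order.

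Genotypes were compared over all 11387 genes with limma 3.58.1 in R 4.3.3 (lmFit and trended eBayes, two-sided, Benjamini-Hochberg, threshold 0.05), which was tested on simulated data. Fold changes are Get1 -/- over Get1 +/+. The members, lists and tests were chosen with earlier results of these data known. Values of every array are given for Gsta2 and the other alpha-class genes, the regulators, and members past the threshold, at an unadjusted p under 0.05 or without overlap. Single further genes, among them Nqo1, Hmox1, Gclm, Gstm1, Cat and Sod1, were chosen after their values were seen. The alternatives comprised median centring, quantile normalization, testing without a filter or with one at percentile 70, adding 37.5 (percentile 25 of the signals) before log2, untrended eBayes, array weights, a replicate block, the actin control set as a block, the mean of a gene's probe sets, each array left out in turn and, added after seeing the data, each kept probe set on its own.

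Mice carry the numbers 1 to 3 within a genotype, and no label ties a number to a litter or day. Deviations of same-numbered mice from their genotype means correlated at -0.0195, 0.361 and -0.0251 over the tested genes and at 0.133, 0.26 and 0.14 over the kept probe sets. Over the tested genes 1 of 3 pairs passed 0.1, and over the kept probe sets all 3 did. Mice with different numbers were not correlated for reference, so these values cannot settle whether the numbers pair the mice. The main fit treated the mice as unpaired, with the replicate block as an alternative.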

Additional observations from a re-analysis of the deposited data

How the results depend on the processing

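Gsta2 was lower in Get1 -/- skin in all 16 alternatives, with a log2 change between -2.02 and -1.72. Changing the filter, the eBayes trend, the replicate block or the averaging of probe sets could not move its log2 change (-1.85). Those alternatives bear only on its p. Over all 16, Gsta2 passed the threshold in 14. It missed it without Get1 +/+ replicate 2 (log2 change -1.83, adjusted p = 0.0509) and without Get1 +/+ replicate 3 (log2 change -1.90, adjusted p = 0.0683), so that the number of members past the threshold ran from 0 to 1 over the fits without 1 array. None of the other 29 members passed in any of these alternatives, Txnrd1 coming nearest with an adjusted p of 0.174. The sign of the log2 change was the same in every alternative for 14 of the 29, Txnrd1, Gclc, Nfe2l2 and Hmox1 among them, and differed in at least 1 for the other 15. The median over the tested members was 0.02 and ran from -0.104 (without Get1 +/+ replicate 1) to 0.0609 (without Get1 +/+ replicate 3) over the fits without 1 array. The count over all genes was 5, against 10 with median centring and 8 with array weights, and it ran from 3 (without Get1 +/+ replicate 2 or 3) to 122 (without Get1 +/+ replicate 1). With the replicate block 44 genes passed, Gsta2 kept its call (adjusted p = 0.0134), and 1 of the 55 other pathway genes passed, Ggct (adjusted p = 0.0434). The causes of these differences were not tested. Quantile normalization and median centring moved the median of all genes by -0.005 and 0.00465 on the log2 scale. Signals near the filter, as for Gsta4 and Nqo1, limit what a change in those genes could show.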
